A study of Mus musculus with 60 samples.

Results

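The 39 complement and coagulation genes described here encode plasma proteins of innate immunity and blood clotting, with tissue factor and the fibrinolytic and adhesive partners of both cascades. They were listed by name, with earlier results of these data known, and make up 39 of 20018 genes with a symbol on the array. Each was measured by the probe whose RefSeq accession maps to its symbol, and where several probes did so (12 genes), by the one with the brightest mean signal over the tissue channel. Every value below is a log2 ratio of the signal of tissue RNA, labelled with Cy5, to that of a common reference RNA, labelled with Cy3, on the same spot. A ratio of 1 on this scale therefore stands for 2-fold more signal than the reference, and levels are compared between samples within a probe, never between probes.

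Complement is a chain of proteases and adaptor proteins that coats microbes and damaged cells. It is started by C1q bound to antibodies, by mannose-binding lectins bound to sugars, or by slow turnover of C3, and these routes meet at the convertases that split C3 and C5 and lead to the pore of C6 to C9. Coagulation is started when tissue factor meets factor VII and ends when thrombin turns fibrinogen into fibrin, which plasmin later dissolves. Hepatocytes make most of these plasma proteins, whereas macrophages are a known source of C1q, endothelium of factor VIII, and cells around vessels and epithelia of tissue factor.

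RNA came from lung, liver and forestomach of 20 adult male Muta Mouse animals, a strain that carries a bacterial reporter transgene for mutation tests. The mice were about 10 weeks old and were gavaged daily for 28 days with benzo(ghi)perylene (BghiP), a polycyclic aromatic hydrocarbon, in olive oil. Each dose had 5 mice, given olive oil alone (D0, mice 1 to 5), or 6.25 (D1, mice 6 to 10), 12.5 (D2, mice 11 to 15) or 25 mg/kg-bw/day (D3, mice 16 to 20). Tissues were taken 72 hours after the last dose, and each of the 60 arrays held the RNA of 1 tissue of 1 mouse, so every group had 5 arrays and a mouse number stood for the same animal in each tissue. All groups carried the transgene, and the reference was a pool of RNA from mouse cell lines.

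The labelled tissues matched their defining markers. All 10 hepatocyte markers were well above background on all 20 liver arrays, all 6 alveolar and airway markers on all 20 lung arrays, and 5 of 6 squamous markers on all 20 forestomach arrays. Some arrays held markers of another tissue as well. The lung array of D3 mouse 20 had a summed hepatocyte marker signal of 14.4 on the log2 scale against 11.2 to 11.9 on the other lung arrays, with 10 of 10 hepatocyte markers above background, and the forestomach array of D2 mouse 15 had 15.1 against 14.1 or less on the others. The forestomach array of D0 mouse 2 had an alveolar sum of 18.9 (14.3 or less on the others), the lung array of D0 mouse 1 a squamous sum of 17.7 (9.27 or less on the others), and the glandular stomach sum of forestomach arrays ranged from 8.80 to 21.2. In whole tissue, fewer cells of a type and less RNA per cell cannot be told apart.

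All 39 genes were detected in liver, well above background on all 20 of its arrays. With 5 of 20 arrays as the minimum, 25 were detected in lung and 24 in forestomach. The same rule detected 46.5% of all 55681 probes in liver, 55.7% in lung and 45.0% in forestomach, and single arrays detected 36.3% to 48.3%, 34.9% to 58.6% and 21.3% to 53.3%. Detection in lung and forestomach followed the steps of the cascades unevenly. Of the 6 genes of the convertase stage (C2, C4b, C3, Cfb, Cfi and Hc), 6 were detected in lung and 5 in forestomach, and of the 6 vitamin K dependent genes (F2, F7, F9, F10, Proc and Pros1), 6 and 5. Of the 5 terminal genes (C6, C8a, C8b, C8g and C9), 2 were detected in lung and 1 in forestomach, and of the 4 contact genes (F11, F12, Klkb1 and Kng1), 2 and 1. The 8 initiators (C1qa, C1qb, C1qc, C1ra, Mbl1, Mbl2, Masp1 and Masp2) gave 4 and 5, the 4 fibrin genes (Fga, Fgb, Fgg and F13b) 1 and 2, tissue factor and the cofactors (F3, F5 and F8) 2 and 2, and the fibrinolysis and adhesion genes (Plg, Cpb2 and Vtn) 2 and 3. Masp1, which encodes a lectin pathway protease, was above background on 0 arrays of either tissue.

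In lung the number of members detected per array was 38 on the array of D3 mouse 20 and 19 to 27 on the others, with a median of 22 over all 20. In forestomach it was 36 on the array of D2 mouse 15 and 10 to 27 on the others (median 20.5). These 2 arrays had the highest hepatocyte sums of their tissues, and the part of that in the counts was not tested. On at least 1 array, 38 members were detected in lung and 28 without mouse 20, and 36 in forestomach and 29 without mouse 15, whereas the counts on 5 or more arrays were then 25 and 23.

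**Figure D1:**
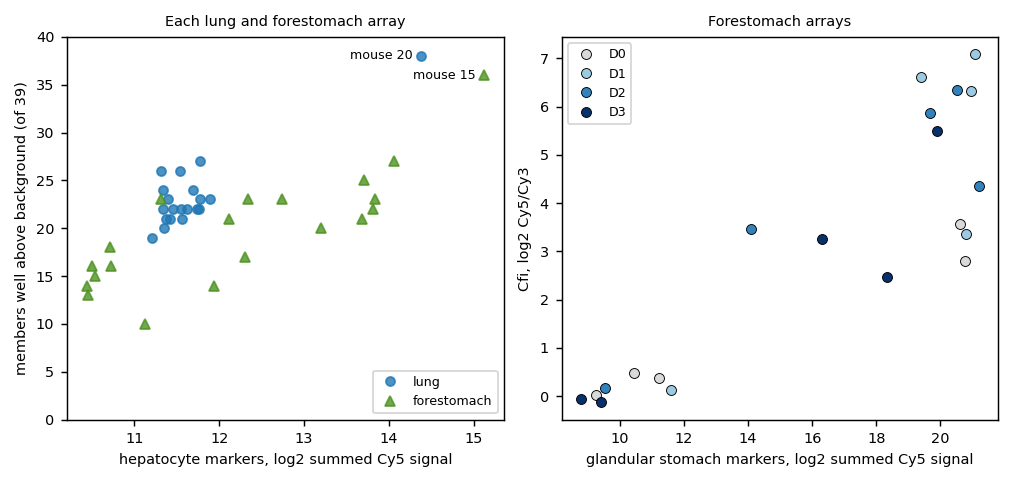
Left, members well above background on each lung and forestomach array (of 39) against the log2 summed signal of the hepatocyte markers, 1 point per array. Right, the log2 Cy5/Cy3 ratio of Cfi in forestomach against the log2 summed signal of glandular stomach markers, 1 point per mouse, coloured by dose. Lung mouse 20 (38 members) and forestomach mouse 15 (36 members) lie apart on the left, and on the right Cfi is -0.12 to 0.49 on the 7 arrays with the lower sums and 2.46 to 7.08 on the other 13.

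In vehicle mice, the comparison of tissues asked where the cascades' genes were transcribed without BghiP. Nearly every member was higher in liver than in lung and forestomach, by a median of 6.69 and 6.94 on the log2 scale against a median of -0.06 and -0.02 over all 33255 probes tested. Of 39 members, 36 were higher and 2 lower in liver than in lung by limma (adjusted p of 0.05 or less and at least 1.5-fold), where 19.0% of all probes were called higher and 25.4% lower. Against forestomach, 37 were higher and 1 lower (18.2% and 21.0% of all probes). All 39 passed the filter through liver, where they are bright, so these counts describe the list and are no test of it. The values of the vehicle groups overlapped between liver and lung for 2 members, C1qa and Pros1, and between liver and forestomach for 3, C1qa, F3 and F10. They did not overlap for 37 and 36 members, as for 50.2% and 38.3% of all probes.

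**Figure D2:**
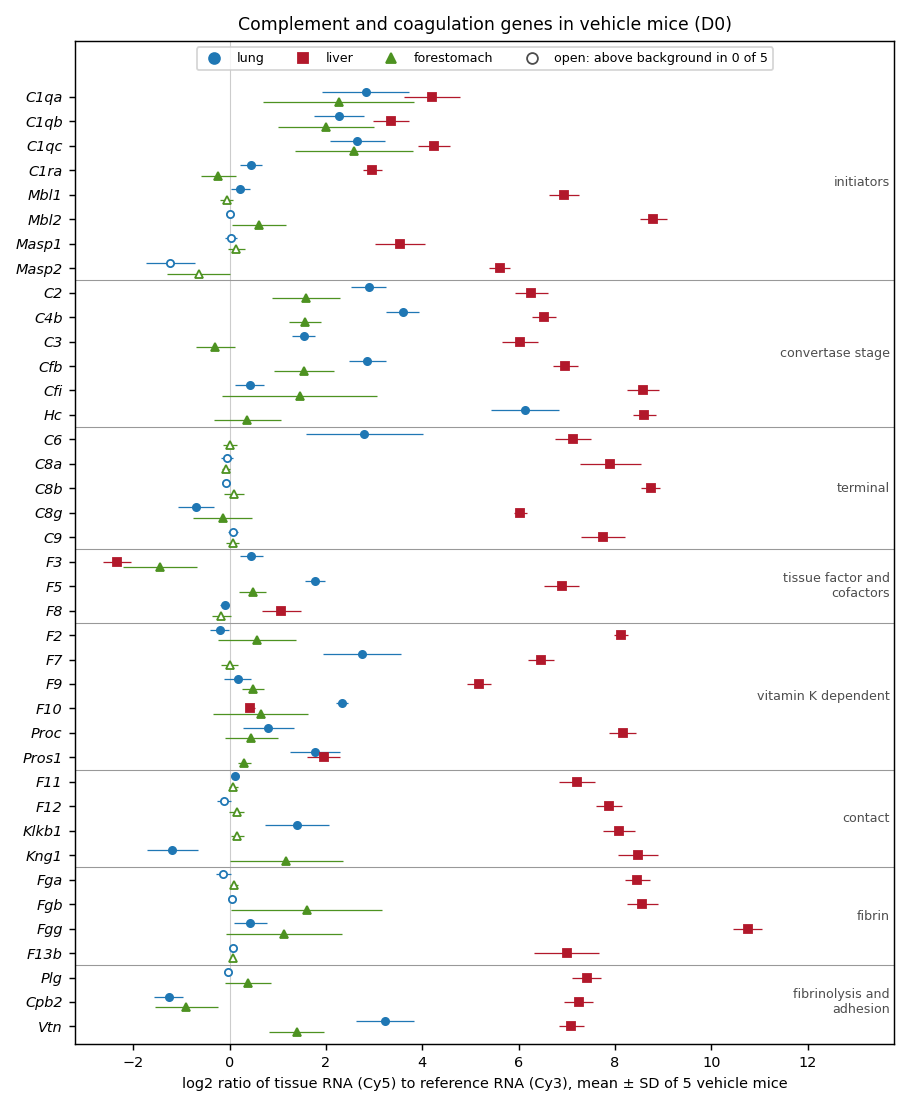
Mean ± SD of the log2 Cy5/Cy3 ratio of each of the 39 genes in 5 vehicle mice, by tissue and step of the cascades. Open symbols mark genes above background on 0 of the 5 arrays. The liver means stand to the right of both other tissues for all genes but F3 and F10, and those of Pros1 in liver and lung lie beside each other.

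Among the initiators, the C1q chains had the smallest liver excess over lung, 1.08 to 1.60 on the log2 scale. C1qa encodes 1 of the chains of C1q, the pattern sensor of the classical pathway. It was 2.77, 2.60, 1.49, 3.38 and 3.87 in the 5 vehicle lungs, 5.03, 4.25, 3.75, 4.40 and 3.56 in the livers and 2.86, 1.27, 0.03, 3.41 and 3.74 in the forestomachs. The liver values were higher on average by 1.37 ± 0.53 than lung (log2 ± SE, adjusted p = 0.0216) and by 1.93 ± 0.53 than forestomach (adjusted p = 0.00161), and both ranges overlapped those of liver. The liver excess over lung was 1.08 ± 0.36 for C1qb and 1.60 ± 0.40 for C1qc, and no C1q chain differed by the test between lung and forestomach (adjusted p from 0.395 to 0.904). Leaving out the lung of mouse 3 or the liver of mouse 1 took the C1qa difference from lung to 1.04 or 1.17 and off the called list.

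The lectin pathway genes had liver values far from those elsewhere. Mbl2, a mannose-binding lectin, was 8.89, 8.45, 8.90, 9.16 and 8.58 in the 5 livers. It was -0.08, 0.03, 0.08, -0.04 and 0.06 in the lungs, above background on 0 of 5 arrays, and 1.00, 0.43, -0.10, 1.31 and 0.41 in the forestomachs, above background on 2. The liver value was at least 442-fold higher than in lung. Over forestomach, with 2 of 5 arrays above background, the excess was an estimated 291-fold (adjusted p = 7.97e-21). Where a gene was not above background on any array of a group, the fold has only a bound. The Cy5 signal of the bright group was set against the lowest detectable signal of the dim one or the probe's own, whichever was higher, both after normalization between arrays and without it, and the number printed is the lowest of these and the ratio fold. With no dye swap it is open to dye bias. Each bound holds for the chosen probe alone. Further probes of C8a, Fga and Masp2 gave liver excesses over lung below the bounds printed for these genes. On the log2 scale these were 4.85 for C8a, 6.91 for Fga, and 6.08 and 2.88 for Masp2. The partner protease genes of Mbl2, Masp1 and Masp2, were at least 5.55-fold and 114-fold higher in liver than in lung. C1ra, a protease of the C1 complex, was 5.73-fold higher in liver than in lung and 1.60-fold higher in lung than in forestomach, and its near-identical neighbour C1rb makes this probe's target uncertain.

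The convertase genes were higher in liver, and all but Cfi were above background on all 5 vehicle lung arrays. C3, the protein at which all routes of complement meet, was 6.16, 5.66, 6.17, 6.53 and 5.64 in the livers, 1.38, 1.71, 1.68, 1.72 and 1.20 in the lungs and 0.31, -0.81, -0.37, -0.41 and -0.21 in the forestomachs. The 3 ranges were apart from each other. Liver exceeded lung by 4.49 ± 0.30 (22.5-fold, adjusted p = 2.78e-19), and lung exceeded forestomach by 1.84 ± 0.30 (3.57-fold, adjusted p = 7.36e-07). C4b, which pairs with C2 in the classical and lectin routes, was 6.47, 6.36, 6.55, 6.94 and 6.33 in liver, 3.497, 3.42, 3.95, 3.93 and 3.16 in lung and 1.68, 2.09, 1.23, 1.503 and 1.36 in forestomach, again without overlap. It was 7.64-fold higher in liver than in lung and 4.07-fold higher in lung than in forestomach, and its close copy C4a makes the target of the probe uncertain. Factor B (Cfb), the protease of the alternative route, was 7.02, 6.70, 7.07, 7.33 and 6.71, 2.63, 3.04, 2.52, 3.46 and 2.67 and 1.61, 1.22, 0.68, 2.09 and 2.16 in liver, lung and forestomach. Its 17.2-fold liver excess over lung and 2.48-fold lung excess over forestomach both passed the test (adjusted p = 3.1e-13 and 0.00483), the second with an adjusted p of 0.00239 to 0.246 over the alternatives and not called with Cy5 alone (0.62). The first ran from 3.53 to 6.13 on the log2 scale over the alternatives that left out no array. For C2, the protease subunit that pairs with C4, the folds of liver over lung and of lung over forestomach were 10.4 and 2.48.

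Hc, which encodes complement C5, was the convertase gene with lung values nearest to liver. It was 8.44, 8.69, 8.92, 8.67 and 8.31 in the livers and 5.52, 6.28, 5.29, 6.93 and 6.62 in the lungs. In the forestomachs it was 0.08, 1.60, -0.10, 0.22 and 0.03, above background on 1 of 5 arrays, that of mouse 2, whose alveolar marker sum was also the highest. The liver was 5.58-fold above the lung (adjusted p = 5.77e-10), and the lung 54.2-fold above the forestomach (5.76 ± 0.31 on the log2 scale, adjusted p = 4.53e-22). The forestomach mean rests on arrays at background but for that of mouse 2, so this fold is an estimate. Cfi, the protease that inactivates C3b and C4b, was 8.68, 8.24, 8.81, 8.94 and 8.22 in the livers and 0.27, 0.29, 0.32, 0.25 and 0.95 in the lungs, above background on 1 of 5 lung arrays. In forestomach its values spread widely, 0.37, 3.57, 2.79, 0.49 and 0.03, with 2 of 5 arrays above background, those of mice 2 and 3.

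Of the terminal genes, C6 and C8g were above background on all 5 vehicle lung arrays. C6, the first protein after C5b to join the pore, was 7.22, 6.55, 7.33, 7.52 and 7.05 in the livers, 2.15, 2.81, 1.24, 3.35 and 4.46 in the lungs and -0.12, 0.26, 0.02, -0.02 and -0.10 in the forestomachs. Liver was 20.1-fold above lung (adjusted p = 5.83e-14), and lung was at least 5.42-fold above forestomach, where 0 of 5 arrays were above background. C8a, C8b and C9, which encode the later pore proteins, were above background on 0 vehicle arrays of lung or forestomach. They were at least 89.6-fold, 408-fold and 62.7-fold higher in liver than in lung. C8g, the lipocalin chain of C8, had a liver mean of 6.04 ± 0.13 (SD, n = 5) and a lung mean of -0.69 ± 0.38, above background on all 5 arrays of both.

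By its chosen probe, tissue factor was the 1 member called lower in liver than in both other tissues. F3, the cell-surface starter of coagulation, was 0.56, 0.06, 0.63, 0.39 and 0.62 in the lungs, -2.62, -2.25, -1.94, -2.60 and -2.27 in the livers and -2.13, -0.89, -0.72, -1.07 and -2.42 in the forestomachs. The lung values were all above those of both other tissues, by 6.91-fold over liver (adjusted p = 5.58e-14) and 3.74-fold over forestomach (adjusted p = 1.25e-08). Liver was 1.85-fold below forestomach (adjusted p = 0.00259), with overlapping values, and a second F3 probe gave -0.70 for liver minus lung, which was called as well, but -0.28 for liver minus forestomach (adjusted p = 0.106) and 0.42 for lung minus forestomach, which were not called. That probe was above background on 18 lung, 0 liver and 3 forestomach arrays. F5, the cofactor of factor X, was 7.08, 6.31, 7.06, 7.22 and 6.79 in liver, 1.82, 1.504, 1.64, 1.92 and 2.02 in lung and 0.61, 0.52, 0.09, 0.84 and 0.33 in forestomach, a 34.6-fold liver excess over lung and a 2.47-fold lung excess over forestomach. F8, the cofactor of factor IX, was 1.59, 0.57, 1.16, 1.31 and 0.75 in the livers, 0.06, -0.17, -0.13, -0.10 and -0.17 in the lungs and -0.40, -0.18, 0.14, -0.16 and -0.26 in the forestomachs, and liver exceeded lung by an estimated 2.26-fold (adjusted p = 1.6e-12), with 1 of 5 lung arrays above background. Over the alternatives that left out no array this excess ran from 0.76 to 3.60 on the log2 scale.

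Among the vitamin K dependent genes, prothrombin was near background in lung. F2, which encodes prothrombin, was 8.19, 7.95, 8.09, 8.32 and 8.05 in the livers, -0.30, -0.11, 0.07, -0.22 and -0.45 in the lungs (1 of 5 above background) and 1.49, 0.96, 0.05, 0.91 and -0.56 in the forestomachs (3 of 5). The estimated liver excess was 321-fold over lung, from arrays mostly at background, and 188-fold over forestomach (adjusted p = 8.64e-23 and 6.26e-21). F7, the protease that tissue factor binds, had a lung mean of 2.75 ± 0.81 and was at least 4.66-fold higher in lung than in forestomach and 13.1-fold higher in liver than in lung. F9 was 32.1-fold and Proc, protein C, 164-fold higher in liver than in lung. Pros1, the cofactor of protein C, was the 1 member that did not differ by the test between liver and lung, with means of 1.95 ± 0.35 and 1.78 ± 0.52, a difference of 0.17 ± 0.19 and an adjusted p of 0.44.

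F10, the protease that makes thrombin, could not be ordered between liver and lung, since its 2 probes disagreed. On the brighter probe it was 2.14, 2.27, 2.40, 2.47 and 2.40 in the lungs, 0.33, 0.33, 0.51, 0.54 and 0.44 in the livers and -0.50, 1.10, 1.93, -0.16 and 0.85 in the forestomachs, so liver was 3.74-fold below lung (adjusted p = 2.39e-08). By this probe F10 is 1 of the 2 members counted as lower in liver than in lung. Before normalization its mean log2 Cy5 signal at D0 was 17.47 in lung and 17.41 in liver. The Cy3 signal was 17.27 and 17.55. The part of normalization in the difference was not tested. On the second probe, with the same accession, the liver mean was 6.83, the lung mean 1.77 and the forestomach mean 0.30, and liver exceeded lung by 5.06. Both probes gave lung above forestomach, by 1.69 ± 0.27 and 1.47. Over the 12 members with more than 1 probe, 12 of 13 further probes had the sign of the chosen one for liver minus lung, 12 of 13 for liver minus forestomach, and 11 of 13 for lung minus forestomach.

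The contact genes differed in where they were detected outside liver. F12 was above background on 0 of 5 lung arrays and at least 253-fold higher in liver. Klkb1, plasma prekallikrein, had a lung mean of 1.39 ± 0.66, above background on 5 of 5 arrays, and was 103-fold higher in liver than in lung and at least 1.84-fold higher in lung than in forestomach. F11 was an estimated 139-fold higher in liver than in lung, where 2 of 5 arrays were above background. Kng1, the kininogen, was the 1 member lower in lung than in forestomach, with means of -1.19 ± 0.52 and 1.18 ± 1.17 and a difference of -2.37 ± 0.62 (adjusted p = 0.0012). It was above background on 1 of 5 lung and 4 of 5 forestomach arrays, and its relative Kng2 makes the probe's target uncertain. A second Kng1 probe gave -0.09 for lung minus forestomach (adjusted p = 0.792) and was not called. Over all doses that probe was above background on 1 lung and 1 forestomach array.

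The 3 fibrinogen chains were bright in liver and at or near background in lung. Fgb, the beta chain, was 8.61, 8.13, 8.65, 9.01 and 8.43 in the livers and 0.19, 0.01, -0.01, 0.06 and -0.0034 in the lungs, above background on 0 of 5 lung arrays, and was at least 366-fold higher in liver. In the forestomachs it was 3.49, 0.79, 0.37, 3.11 and 0.26, above background on the arrays of mice 1 and 4 alone. Fga, the alpha chain, was at least 387-fold and Fgg, the gamma chain, 1279.8-fold higher in liver than in lung, the second an estimate against a lung group in which 1 of 5 arrays was above background. F13b, the carrier chain of the fibrin crosslinker, was at least 39.1-fold higher. Plg, the precursor of plasmin, was 7.29, 7.07, 7.55, 7.83 and 7.31 in the livers, -0.07, -0.10, -0.03, -0.06 and 0.05 in the lungs and 0.81, 0.08, -0.06, 0.97 and 0.08 in the forestomachs, and was at least 175-fold higher in liver than in lung. Vtn, vitronectin, which binds the terminal complex and plasminogen activator inhibitor, was 7.21, 6.86, 7.11, 7.46 and 6.83 in liver, 2.95, 3.14, 2.45, 3.55 and 4.04 in lung and 1.84, 1.15, 0.50, 1.86 and 1.60 in forestomach, a 14.6-fold liver excess over lung and a 3.57-fold lung excess over forestomach. The size of the first depended on the processing, from 2.31 to 8.00 on the log2 scale over the alternatives that left out no array. The second was 0.88 on the log2 scale with processed signals and not called (adjusted p = 0.0666, and 3.55e-05 to 0.0666 over the alternatives). Cpb2, which protects fibrin from plasmin, was 363-fold higher in liver than in lung.

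The promoters of the fibrinogen genes and of C9 are shown because the chains varied together and C9 had the largest shift with dose in liver. Each run is the 150 bases before the RefSeq start on assembly GRCm38.p6, 5′ to 3′ on the gene's strand: chr3:83026003-83026152 on the plus strand for Fga, chr3:83049864-83050013 on the minus strand for Fgb, chr3:83007574-83007723 on the plus strand for Fgg and chr15:6445196-6445345 on the plus strand for C9. Capitals mark matches to the motifs named next.
Fga: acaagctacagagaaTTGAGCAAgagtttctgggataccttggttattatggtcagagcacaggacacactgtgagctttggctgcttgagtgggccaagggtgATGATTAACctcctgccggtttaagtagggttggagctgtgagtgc
Fgb: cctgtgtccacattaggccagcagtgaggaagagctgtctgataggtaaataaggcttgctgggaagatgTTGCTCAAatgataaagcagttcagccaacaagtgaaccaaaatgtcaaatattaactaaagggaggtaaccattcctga
Fgg: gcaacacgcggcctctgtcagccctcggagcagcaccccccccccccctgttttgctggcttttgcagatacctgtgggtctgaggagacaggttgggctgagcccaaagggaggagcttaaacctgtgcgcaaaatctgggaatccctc
C9: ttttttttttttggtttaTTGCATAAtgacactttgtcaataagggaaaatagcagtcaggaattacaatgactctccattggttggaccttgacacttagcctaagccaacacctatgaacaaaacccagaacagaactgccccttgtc

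Both strands of 300-base promoters, 250 before and 50 after the start, were searched for motifs of factors known in hepatocytes, and overlapping matches were counted once. RefSeq promoters were found for 30 of the 39 members. The HNF1 motif GTTAATNAT stood in 3 of 30 (F13b, Fga and Hc) and in 0.801% of 32851 promoters. The C/EBP motif TTGCNNAA stood in 9 of 30 (C1ra, C3, C9, Cpb2, F11, F9, Fga, Fgb and Klkb1) and in 10.8% of all, and the STAT motif TTCCNGGAA in 2 of 30 (Fga and Pros1) and in 1.15% of all. The HNF4 motif CAAAGTCCA stood in 0 of 30 and in 0.475% of all. In the runs above the Fga window holds an HNF1 match 46 bases and a C/EBP match 135 bases before the start, the C/EBP match of Fgb lies 80 and that of C9 132 bases before it, and Fgg has no match to these letters.

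Between lung and forestomach, 14 members were higher and 1 was lower in lung, where 18.8% of all probes were called higher and 14.5% lower. The median difference of the 39 was 0.07 against 0.02 over all probes. The 14 were C1ra, C2, C4b, C3, Cfb, Hc, C6, F3, F5, F7, F10, Pros1, Klkb1 and Vtn, so 5 of the 6 convertase genes stood in this set and 0 of the 4 fibrin genes did. The group ranges overlapped for 24 members and not for 15, as not for 28.7% of all probes. Kng1 was the lower one. With mouse as a replicate block, which pairs the tissues of an animal, the number called lower was 2, and the second, Masp2, was above background on 0 of 5 arrays of either tissue, so that its call measures no difference in the gene. Without the block, leaving out the forestomach of D0 mouse 5 raised the number called lower to 5 (Kng1, C8g, Cpb2, Fgb and Masp2), and leaving out the lung of D0 mouse 3 to 2 (Kng1 and Masp2).

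The reference channel bears on the size of the liver gaps. The same reference RNA was on every array, yet for 10 members (Mbl1, Mbl2, Cfi, C8b, F12, Klkb1, Fga, Fgb, Fgg and Plg) its Cy3 signal was well above background on all 20 liver arrays and on under 10 of 20 in each of the other tissues. At D0 the mean log2 Cy3 signal of these was 0.90 to 4.57 higher on liver than on lung arrays, and for Fgb it was 10.0 against 5.45. The liver excess over lung was smaller by ratio than by unnormalized Cy5 signal for 8 of the 10, and larger for Mbl1 and Klkb1. Fgb had a fold of 366 by ratio and of at least 3387 by unnormalized Cy5 signal. What raised the Cy3 signal was not tested, and with Cy5 alone the counts were 36 higher and 2 lower against lung and 37 and 1 against forestomach.

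Of 51 other genes of the cascades listed as regulators, receptors and cofactors, 50 were on the array and 44 were tested. In vehicle mice 24 were higher and 16 lower in liver than in lung, where 19.0% and 25.4% of all probes were, with a median difference of 1.47 against -0.06. The higher ones included Serpinc1, antithrombin, with a liver mean of 10.4 and a lung mean of -0.36, and C4bp, with 9.59 and -0.54. Vsig4, a complement receptor of macrophages, and Cd59a, an inhibitor of the pore, were higher in liver too. The lower ones included Thbd, thrombomodulin, with -2.54 and 3.76, Vwf, von Willebrand factor, with 1.36 and 5.40, and Itgax, a complement receptor chain, with -0.99 and 2.94. Against forestomach 27 were higher and 11 lower in liver (18.2% and 21.0% of all probes), and 16 were higher and 5 lower in lung than in forestomach (18.8% and 14.5%).

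The dose groups asked whether BghiP changed these transcripts. By limma 0 of the tested members were called at any dose in any tissue (0% of all probes were called as well in each of the 9 comparisons), and residual shuffling, a permutation test modelled on the study's own, also called 0 members. With its own permutation test and the same thresholds, the study reported changed genes in each tissue at D3. At an unadjusted p under 0.05, lung had 3, 2 and 2 of 25 members from D1 to D3, beside 2.22%, 3.40% and 4.81% of all probes. Liver had 0, 2 and 3 of 39 (3.02%, 4.13% and 12.1% of all probes), and forestomach 2, 0 and 0 of 24 (9.38%, 3.65% and 1.51%). With slide as a block 0 members were again called at any dose, while 0.0677% of all probes were called at D3 in lung, 0.0927% at D3 in liver and 0 in the other comparisons. The unadjusted counts were 8, 10 and 8 in lung (9.39%, 12.2% and 15.6% of all probes), 0, 4 and 6 in liver (4.24%, 6.83% and 17.9%) and 4, 2 and 1 in forestomach (18.1%, 9.43% and 6.44%). At D3 the median change was -0.13 in liver with 29 of 39 members below vehicle (50.2% of all probes), and -0.11 in forestomach with 17 of 24 below (47.7%). In lung it was 0.25 with 21 of 25 above (52.6%), but without mouse 20, chosen after the values had been seen, it was -0.01 with 11 of 25 above (50.1%). The 3 doses share the same vehicle mice, so their shares are not independent of each other. On the slide layout each dose had its own array column, so dose and column cannot be told apart. Of the other cascade genes 35 were tested by dose in lung, 41 in liver and 39 in forestomach, and 0 were called at any dose in any of them, with 5, 7 and 0 at an unadjusted p under 0.05 at D3.

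**Figure D3:**
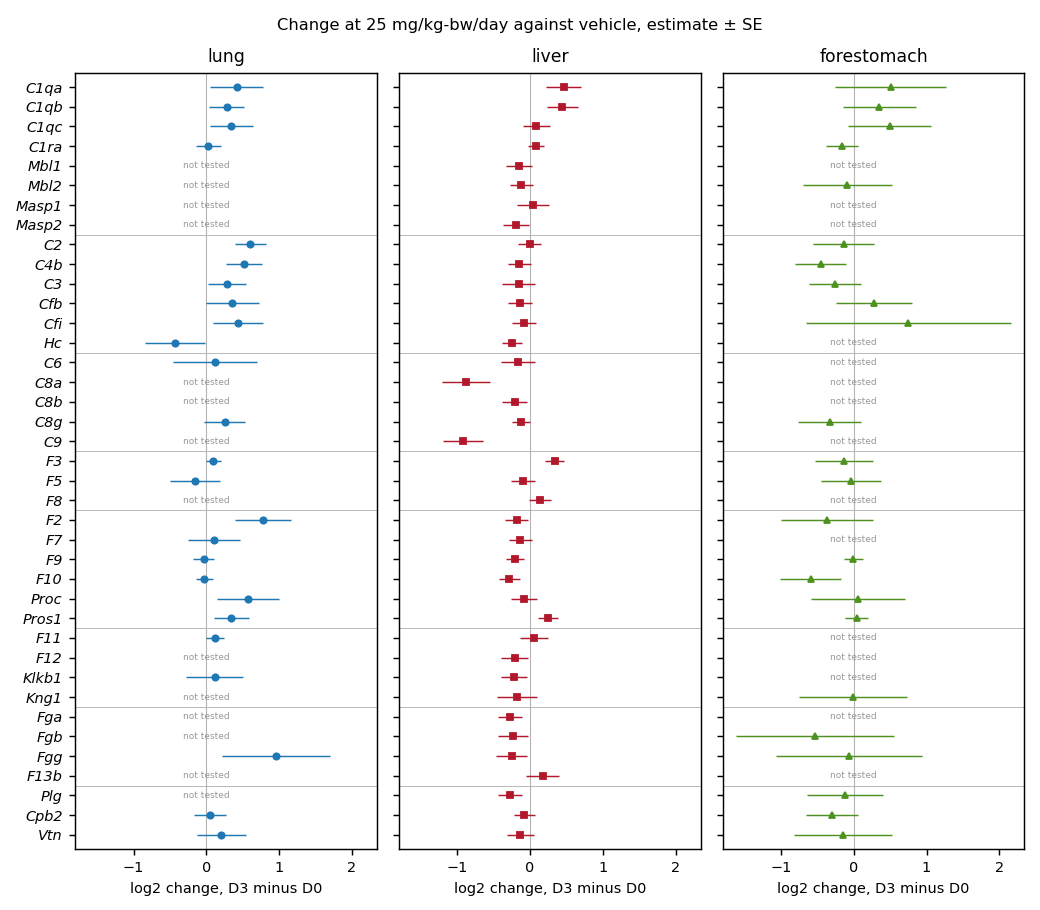
Estimated log2 change at 25 mg/kg-bw/day against vehicle, ± SE from limma, for each member tested in lung, liver and forestomach, with 5 mice per group. C9 (-0.92) and C8a (-0.88) lie farthest to the left in liver, most lung estimates lie right of 0 (21 of 25, and 11 of 25 without mouse 20), and genes that were detected on fewer than 5 arrays are marked as not tested.

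In liver the terminal pore genes C9 and C8a stood lowest against vehicle, without passing the test. C9, which forms the ring of the pore, was 7.44, 8.25, 7.37, 7.45 and 8.26 at D0, 7.83, 7.90, 6.77, 7.79 and 8.14 at D1, 7.84, 7.01, 7.25, 6.03 and 7.23 at D2 and 6.70, 6.96, 6.82, 6.77 and 6.93 at D3. All 5 D3 values lay below the lowest vehicle value. C9 was picked for the largest D3 statistic among the liver members, and the share of all liver probes separated in this way was not counted. The change at D3 was -0.92 ± 0.27 (log2 ± SE), with an adjusted p of 0.193, and the slope was -0.0399 per mg/kg-bw/day with an adjusted p of 0.0827. With slide as a block the slope had an adjusted p of 0.039 and was called, as were 2.63% of all probes, and without the liver of D2 mouse 14 it was 0.0453 and called, as were 0.301%. Over all alternatives the adjusted p ran from 0.039 to 0.341. C8a, the chain of C8 that enters the membrane, was 6.89, 7.78, 8.60, 8.13 and 8.12 at D0 and 6.54, 7.83, 6.96, 6.92 and 6.86 at D3, a change of -0.88 ± 0.33 with an adjusted p of 0.281. All 5 D3 values lay below the vehicle mean, and the ranges overlapped through D0 mouse 1 and D3 mouse 17. The C8a change ran from -0.93 to -0.29 over the alternatives that left out no array. Its adjusted p ran from 0.126 to 0.676 over all alternatives, the highest with processed signals. Acute phase genes (8 listed, all above background in every liver) had summed log2 signals of 18.9 to 20.7 at D0 and 18.8 to 20.2 at D3. The other pore genes had D3 estimates of -0.17 for C6, -0.21 for C8b and -0.13 for C8g.

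F3, tissue factor, was the member with the lowest p among those above vehicle in liver. It was -2.62, -2.25, -1.94, -2.60 and -2.27 at D0 and -2.08, -2.10, -1.88, -2.13 and -1.80 at D3. All 5 D3 values lay above the vehicle mean, within a range that overlapped it. The change was 0.34 ± 0.13 with an adjusted p of 0.306. The slope on dose called 0 members in liver, where 0.239% of all probes were called, and 5 (C9, Hc, F3, C8a and F10) had an unadjusted p under 0.05, where 14.8% of all probes had one. In lung 2 of 25 (F2 and C2; 4.79% of all probes) and in forestomach 0 of 24 (2.36% of all probes) had one, with 0 called in each.

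In lung the genes with the lowest p were the paired convertase subunits C2 and C4b. C2 was 2.67, 2.94, 2.81, 3.48 and 2.54 at D0, 2.97, 3.53, 3.24, 3.68 and 3.31 at D1, 3.18, 3.47, 3.15, 4.03 and 3.80 at D2 and 3.23, 3.46, 3.09, 3.65 and 4.03 at D3. Every treated value lay above the vehicle mean, and the vehicle value of mouse 4 lay inside the treated ranges. The change at D3 was 0.61 ± 0.21 with an adjusted p of 0.899, and of 0.0552 to 1 over the alternatives, the lowest with slide as a block. C4b was 3.497, 3.42, 3.95, 3.93 and 3.16 at D0, 3.99, 4.52, 4.54, 4.32 and 3.55 at D1, 3.52, 4.52, 4.11, 5.16 and 4.68 at D2 and 4.09, 4.12, 3.84, 4.28 and 4.23 at D3. The changes were 0.59 ± 0.25, 0.80 ± 0.25 and 0.52 ± 0.25, with adjusted p of 1, 1 and 0.998. The D1 and D2 means lay above that of D3, and each treated group overlapped the vehicle values. C3 at D1 had an unadjusted p of 0.0416 and an adjusted p of 1.

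F2 in lung rested on 1 mouse. It was -0.30, -0.11, 0.07, -0.22 and -0.45 at D0 and 0.03, -0.23, 0.15, 0.05 and 2.85 at D3, and only mouse 20 stood above the rest. The change at D3 was 0.77 ± 0.38 with all mice (adjusted p = 0.998) and 0.20 without mouse 20, whose lung array held 10 of 10 hepatocyte markers. On that array Fgb was 5.31 and Cfi 2.67. The part of the hepatocyte signal in these values was not tested. Fgg had the largest D3 estimate of the lung members, 0.96 ± 0.74, which was -0.08 without mouse 20, and Proc had 0.58 with all mice and 0.09 without it.

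**Figure D4:**
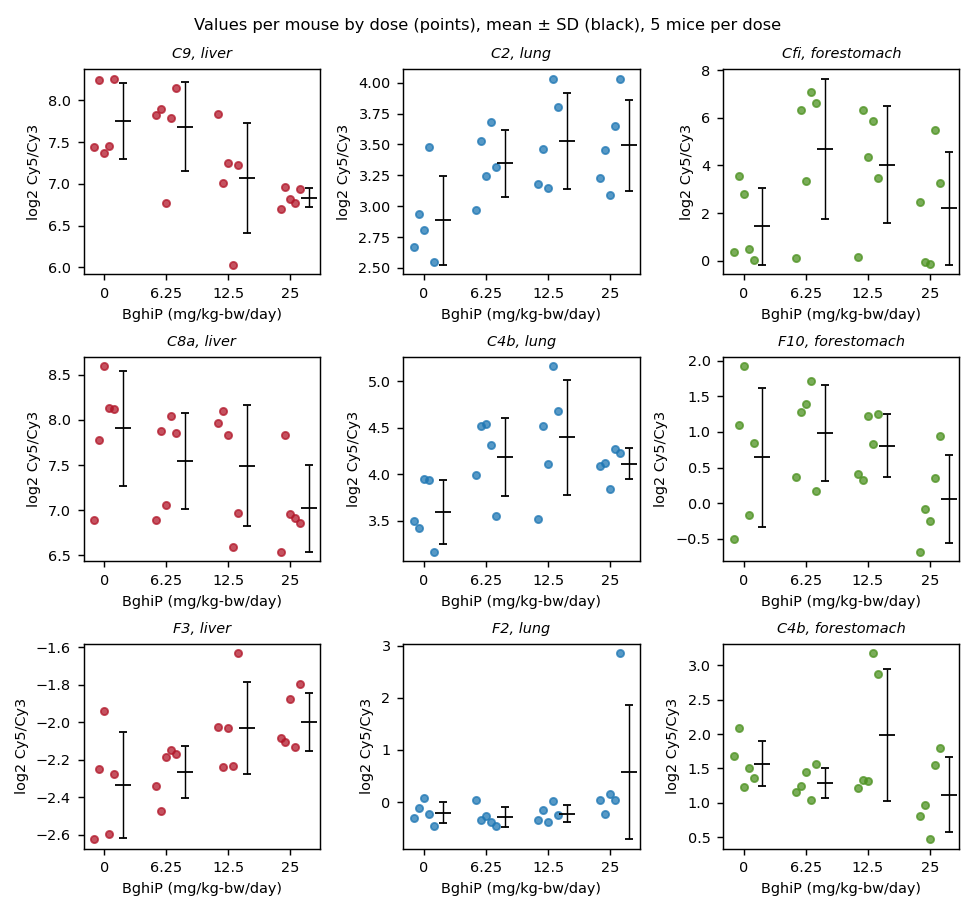
Log2 Cy5/Cy3 ratios of 9 member and tissue pairs by dose in mg/kg-bw/day, with 1 point per mouse and the mean ± SD of 5 mice in black beside them. In liver the 5 values of C9 at 25 lie between 6.70 and 6.96, below all 5 vehicle values, the F2 panel shows the single high lung of mouse 20, and Cfi in forestomach spreads from near 0 to above 5 within the treated doses.

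In forestomach Cfi, the inactivator of C3b, varied most. It was 0.37, 3.57, 2.79, 0.49 and 0.03 at D0 and 0.12, 6.33, 3.35, 7.08 and 6.61 at D1, then 0.17, 6.33, 4.36, 5.86 and 3.47 at D2 and 2.46, -0.06, -0.12, 5.49 and 3.26 at D3. In every dose group some mice were near 0 and others above 2. The D1 estimate was 3.25 ± 1.40 with an unadjusted p of 0.0322 and an adjusted p of 0.514. Cfi was higher on the arrays with higher summed glandular stomach signals. On the 7 arrays with the lowest sums, 8.80 to 11.6, Cfi was -0.12 to 0.49 (median 0.12), and on the other 13, with sums of 14.1 to 21.2, it was 2.46 to 7.08 (median 4.36). The 7 arrays were of 3 D0, 1 D1, 1 D2 and 2 D3 mice. This was noticed after the values had been seen, and the gap between the sets is given with no test. Within the 7 arrays Cfi and the sum had r = 0.61 (permutation p = 0.156). Within the other 13 they had r = 0.38 (permutation p = 0.21), so no relation passed within either set. The part of the glandular tissue in the Cfi values was not tested.

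The members with the largest statistics at D3 or for the slope in forestomach were F10, C4b, C1qc and Cpb2, and none passed an unadjusted p of 0.05. F10 was -0.50, 1.10, 1.93, -0.16 and 0.85 at D0 and -0.68, -0.08, -0.25, 0.35 and 0.94 at D3, a change of -0.59 ± 0.42. C4b was 1.68, 2.09, 1.23, 1.503 and 1.36 and 0.81, 0.97, 0.47, 1.55 and 1.80, a change of -0.45 ± 0.35. In both genes 4 of 5 D3 values lay below the vehicle mean and the ranges overlapped. C1qc was 2.99, 1.65, 0.95, 3.67 and 3.65 and 3.03, 3.00, 2.31, 3.32 and 3.71, a change of 0.49 ± 0.57. Cpb2 was -0.75, -0.37, -0.31, -1.14 and -1.91 and -1.21, -1.43, -0.76, -0.67 and -1.90, a change of -0.30 ± 0.35. At D1 C1ra had -0.52 ± 0.22 with an unadjusted p of 0.0296 and an adjusted p of 0.51.

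A test of the difference between tissues in the D3 change was made for all 39 members, and 0 were called in any of the 3 pairs of tissues, as were 0% of all probes. At an unadjusted p under 0.05 there were 2 members for lung minus liver (C9 and C8a; 2.96% of all probes), 1 for lung minus forestomach (C4b; 2.07%) and 2 for liver minus forestomach (C9 and C8a; 4.26%). The difference was 1.10 ± 0.30 (SE) for C9 and 0.98 ± 0.31 for C8a between lung and liver, but both genes were at background in lung and forestomach. For C4b the lung change exceeded that of forestomach by 0.97 ± 0.39.

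The chains of one protein were compared over the 20 mice of a tissue, after subtraction of each dose's mean. In liver the fibrinogen chains went together closely. Fga and Fgb had r = 0.92 and rho = 0.91, Fga and Fgg r = 0.87 and rho = 0.86, and Fgb and Fgg r = 0.91 and rho = 0.91 (permutation p = 1e-05 for each r, the smallest that 100000 permutations give, and 1.5e-05 adjusted over 15 pairs). Without the 2 mice farthest from the median of the first chain they were 0.90, 0.84 and 0.93, and with slide means subtracted as well 0.87, 0.73 and 0.79. Among 25861 liver probes Fgb ranked 25th and Fgg 205th by correlation with Fga, Fga 92nd and Fgg 110th with Fgb, and Fga 149th and Fgb 42nd with Fgg, and the median correlation with Fga over all probes was 0.11.

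**Figure D5:**
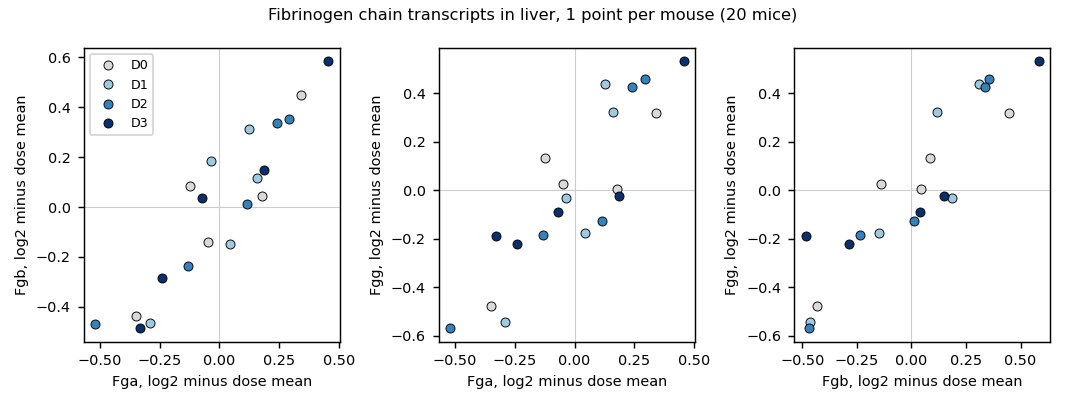
Log2 ratios of Fga, Fgb and Fgg in liver after subtraction of the dose mean, 1 point per mouse and 20 mice, coloured by dose. The points of each pair run along a rising line (r from 0.87 to 0.92), with mice of every dose along it.

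The chains of C8 did not share this pattern. C8a and C8b had r = -0.28 and rho = -0.35 (permutation p = 0.23 and 0.133, adjusted p = 0.23 and 0.143), C8a and C8g r = 0.30 and rho = 0.26 (adjusted p = 0.215 and 0.264), and C8b and C8g r = 0.50 and rho = 0.46 (permutation p = 0.0238 and 0.0432, adjusted p = 0.0275 and 0.0498). The C8b and C8g relation was 0.29 without the 2 farthest mice, 6 and 14, and rests on them. Without mice 14 and 16 the C8a and C8b relation was -0.64 and passed the test (adjusted p = 0.00554), while with processed signals it was 0.28 (adjusted p = 0.257), so its sign is not settled.

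The C1q chains went together in all 3 tissues on loess-normalized ratios, but with processed signals 5 of the 9 pairs did not pass the test. Those were C1qa and C1qb in lung (r = 0.29, adjusted p = 0.257) and forestomach (0.32, 0.257), C1qb and C1qc in forestomach (0.30, 0.257) and liver (0.23, 0.364) and C1qa and C1qc in liver (0.053, 0.825). In lung r was 0.92 for C1qa and C1qb, 0.95 for C1qa and C1qc and 0.95 for C1qb and C1qc, and rho was 0.83, 0.90 and 0.85. In forestomach r was 0.88, 0.96 and 0.91 and rho 0.91, 0.95 and 0.93, with an adjusted p of 1.5e-05 for each r in both tissues. In liver r was 0.91, 0.61 and 0.65 and rho 0.90, 0.54 and 0.58, with adjusted p for r of 1.5e-05, 0.0049 and 0.00271. Leaving out the 2 farthest mice gave 0.87, 0.96 and 0.95 in lung, 0.83, 0.93 and 0.87 in forestomach and 0.89, 0.54 and 0.66 in liver. With slide means subtracted as well they were 0.72, 0.72 and 0.83 in lung, 0.46, 0.76 and 0.51 in forestomach and 0.92, 0.83 and 0.78 in liver, and the pair of C1qa and C1qb in forestomach then had an adjusted p of 0.0501. The slides of lung and forestomach each held 1 array of every dose, and the spread between slides is part of the unadjusted values.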

How the data were processed

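Feature Extraction 10.7.3.1 wrote the deposited scanner files, which give the median signal intensity of each spot per the file headers. Per the labels and methods, the authors normalized by LOWESS without background subtraction, and the deposited series matrix holds their log2 ratios of Cy5 to Cy3. Log2 ratios computed here from the median signals correlated with these at r from 0.992 to 0.999. Control spots (3671 of 62976) were left out, ratios were normalized within arrays by loess, spots with an outlier flag were left out (0.0361% of values), and replicate spots were averaged, which left 55681 probes. No spot was saturated. Symbols were matched through RefSeq accessions to a GRCm38.p6 table, used for names and promoters only, since the file headers name mm9.

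In each tissue, the probes fitted were those whose Cy5 signal stood well above background on 5 or more of 20 arrays (31022 in lung, 25893 in liver, 25070 in forestomach, and 33255 in any tissue for comparisons of tissues). Models were fitted with limma 3.58.1 under R 4.3.3 with data.table (version 1.17.8) as reader. P-values were two-sided and adjusted by Benjamini-Hochberg over all probes fitted. Calls were made at an adjusted p up to 0.05 with a change of 1.5-fold or more, and for the slope on dose no minimum change. The tissue model held all 60 arrays, and the dose models the 20 arrays of a tissue, without a term for slide or mouse. With 5 arrays a group, their number sets the precision. The p-values are set against the spread between arrays of a group, in which mouse and slide are mixed. The tissue model took the arrays of a mouse as independent. Subunit pairs were correlated over 20 mice with 100000 permutations, and the pipeline was tested on simulated data. Of 50 simulated probes with a true 1.5-fold change at D3, 16 were called in lung, 21 in liver and 12 in forestomach. With a 2-fold change the numbers were 42, 47 and 28 of 50. Dose calls of 0 therefore do not show that small changes are absent.

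The members and the gene lists were chosen with earlier results of these data known. Values in every mouse are given for a fixed set of 16 genes and, in each tissue, for the 3 members with the largest moderated statistic at D3 and the 3 for the slope. A mouse number is the same animal in each tissue. Deviations from group means correlated between lung and forestomach of a mouse with a median of 0.21 (18 of 20 mice over 0.1), between lung and liver with 0.05, and between liver and forestomach with -0.0013. Lung and forestomach arrays shared 5 slides, and liver arrays had 3 of their own, so slide and tissue cannot be told apart for liver. Alternatives changed the background correction, signal, normalization, filter, probe choice, variance model, blocks, arrays left out and test.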

Additional observations from a re-analysis of the deposited data

Results flagged for a closer look

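A mouse far from the other 4 of its group was looked for in 63 groups of 5 arrays, the vehicle groups of the 16 fixed genes in each tissue and the D0 and D3 groups of the genes named for their dose statistics, of which chance marks about 1 in 20 (5%), and 3 were marked. Hc in the forestomach of D0 mouse 2 was 1.60 against -0.10 to 0.22 in the others, a gap of 0.812 of the group's range, on the array with the highest alveolar marker sum of its tissue. Cfi in the lung of D0 mouse 5 was 0.95 against 0.25 to 0.32, a gap of 0.907, with Cfi above background on that 1 array of the group. F2 in the lung of D3 mouse 20 was 2.85 against -0.23 to 0.15, a gap of 0.879, on the array with 10 of 10 hepatocyte markers. The part of these markers in the values was not tested. The other groups were not searched, and lung D3 mouse 20 stood above the others there for more genes, with Cfi 2.67 against 0.30 to 0.48 and Mbl2 3.79 against -0.23 to -0.06.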

How the results depend on the processing

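The settings gave 571 counts and correlations on the same side as reported and 24 that were not, which are given here. The number lower in lung than in forestomach was 1 as reported and 2 with processed signals, with the deposited ratios, with detection required on all 20 arrays, with mouse as a replicate block, with slide as a block and, chosen after seeing the data, with Cy5 alone, and leaving out 1 array gave 1 to 5. The replicate block, which pairs the tissues of a mouse, changed no other count of calls between tissues. With the mean of all probes, the number lower in liver was 1 against lung and 0 against forestomach, and F10 turned to 1.58 for liver minus lung, as it did to 5.06 on its second probe, chosen after seeing the data. The liver slope called 1 member, C9, with slide as a block (2.63% of all probes), and 0 to 1 with 1 array left out. Leaving out 1 array gave 35 to 36 higher in liver than in lung and 13 to 14 higher in lung than in forestomach, and 0 dose calls but for that slope. Detection on at least 1 array gave 38 members in lung, and on all 20 arrays 9 in forestomach. Of the correlations, C8a with C8b was -0.64 without 2 mice and turned to 0.28 with processed signals, and C8b with C8g was 0.29 and 0.41. With processed signals C1qa with C1qb was 0.29 in lung and 0.32 in forestomach, C1qb with C1qc 0.30 in forestomach and 0.23 in liver, and C1qa with C1qc 0.053 in liver, and with slides subtracted C1qa with C1qb was 0.46 in forestomach. The causes were not tested, except that F10 turned with the choice of probe. Genes above background on no array of a group have only bounds there.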
